A study of Mus musculus with 11 samples.

Results

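Iron moves through the testis with the help of proteins that carry it in fluid, reduce or oxidise it, bring it across membranes, escort it in the cytosol and release it from ferritin, the protein shell that stores it. Here 10 such genes were followed by name in testis RNA: the carrier Trf, the reductase Steap3, the importers Slc39a14 and Slc39a8, the ferroxidase Heph, the mitochondrial carriers Slc25a37 and Slc25a28, the chaperones Pcbp1 and Pcbp2, and the ferritin receptor Ncoa4. They were grouped by these roles, with earlier results of these data known, and all 10 had a row among the 24411 genes of the count table. None is a classical target of the iron regulatory proteins (IRPs). Those proteins, IRP1 (gene Aco1) and IRP2 (gene Ireb2), bind iron-responsive elements (IREs), short hairpins in target mRNAs, and thereby slow ferritin translation and protect transferrin receptor mRNA when iron is scarce.

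RNA of whole testes from untreated mice aged 20 weeks was sequenced in 3 genotypes, with 4 wild-type (WT) samples of C57Bl/6J mice, 4 Irp1-/- samples and 3 Irp2-/- samples. Irp1-/- mice, on a C57Bl/6J background, lacked Aco1 in all tissues through the Aco1tm1Roua allele, and the study's methods describe WT controls as littermates from crosses of heterozygous Irp1 mice. Irp2-/- samples are labelled as Irp2 knockouts, and the breeding of those mice is not given in the sources used here. In comparisons with Irp2-/-, loss of Ireb2 therefore cannot be told apart from any difference in colony or background. The comparisons asked whether loss of either protein altered the mRNA levels of genes that handle iron without a classical IRE. Levels are given as CPM, the count of a gene per 1000000 counts of its sample. A gene was called when its adjusted p (edgeR quasi-likelihood test, Benjamini-Hochberg over all genes tested) was below 0.05.

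Total counts lay between 15902473 and 22451417 per sample. The targeted genes followed the labels: Aco1 averaged 8.60 ± 0.605 CPM in Irp1-/- (SD, n = 4) against 11.7 ± 1.46 in WT (n = 4), and Ireb2 averaged 62.7 ± 1.60 CPM in Irp2-/- (n = 3). The WT mean of Ireb2 was 139 CPM. The Aco1 difference from WT was -0.45 on the log2 scale (adjusted p = 0.0158, edgeR), and the Ireb2 difference was -1.16 (adjusted p = 2.84e-13, edgeR). The Aco1 call was lost when any of WT replicates 2, 3 and 4 or Irp1-/- replicate 6 was left out (adjusted p = 0.052 to 0.075, edgeR). Counts in these alleles cannot tell intact from truncated transcripts. Markers of germ cells and of somatic cells of the testis were present in every sample, while 5 liver markers together summed to 0.999 to 2.16 CPM. The column names of the counts also carry a letter of unstated meaning, R for Irp1-/- replicate 6 and L for the others.

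The IRE hairpin has a bulged C on its left side, 5 paired bases, and a loop of 6 bases that begins with CAGTG. A search of the annotated mouse transcripts (GENCODE M21, GRCm38) for that shape, written as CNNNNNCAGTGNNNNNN with the 5 bases on either side of the loop paired and G-U pairs allowed, returned the known elements of ferritin and the transferrin receptor. They are printed here to show the shape that was searched for in the 10 genes, with the loop in capitals. The Fth1 element lies in the 5' untranslated region (UTR) at chr19:9982738-9982754 on the plus strand, the Ftl1 element in the 5' UTR at chr7:45459785-45459801 on the minus strand, and the Tfrc element shown, 1 of 4 found, in the 3' UTR at chr16:32631225-32631241 on the plus strand.
Fth1: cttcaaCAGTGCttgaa
Ftl1: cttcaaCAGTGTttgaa
Tfrc: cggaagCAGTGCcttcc
This shape was found in 288 of 21899 coding genes (1.32%), in 155 of them within a UTR, and in 0 of the 10 iron transport and ferritin handling genes. The letters CAGTG, without the paired stem, occurred in transcripts of all 10. The search found it in 6 of 8 genes with known elements, so its failure to find the shape does not show that a transcript holds no such element.

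Per kilobase of transcript, the 10 genes covered a wide span in WT testis, with the RNA-binding iron chaperones at the top and the ferroxidase at the bottom. Pcbp2 had the highest level, 154 ± 1.48 CPM per kilobase (SD, n = 4). That placed it at percentile 96.5 of the 15668 genes that had a known length and enough counts to be tested in any comparison. Pcbp1 followed at 63.5 ± 3.40 and Ncoa4 at 54.9 ± 1.18. The mitochondrial carrier Slc25a28 stood at 26.0 ± 1.24 and its paralogue Slc25a37 at 12.8 ± 0.670. Slc39a8, at 12.4 ± 0.0338 CPM per kilobase, was the one gene that did not differ from its upper neighbour beyond the spread between samples. Trf followed at 6.57, Slc39a14 at 1.51, Steap3 at 0.386 and Heph at 0.145 CPM per kilobase, the last at percentile 2. The order was the same when the length of all exons of a gene replaced that of a single transcript. Ferritin itself was abundant, with Fth1 at 97.6 and Ftl1 at 63.6 CPM per kilobase in WT.

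**Figure D1:**
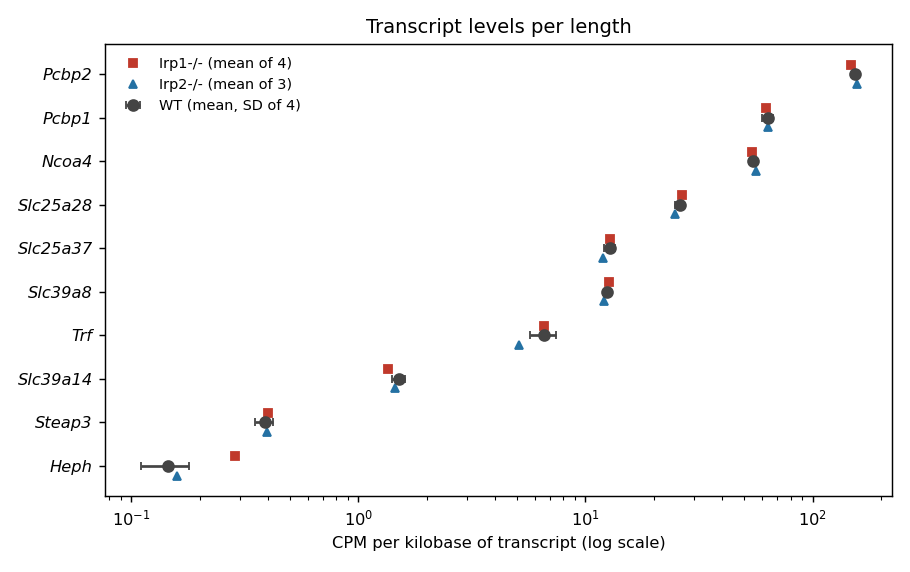
Level of each gene per kilobase of transcript (log axis, CPM per kilobase), with the WT mean and SD of 4 samples as circles, the Irp1-/- mean as squares and the Irp2-/- mean as triangles. The 10 genes run from Pcbp2 at 154 to Heph at 0.145 in WT, and the genotypes separate visibly at Heph and Trf.

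Across the 3 genotype comparisons a single call was made among the 10 genes, for Trf, and all 10 had enough counts to be tested each time. Between Irp1-/- and WT, 0 of 10 were called against 1.02% of the 16002 genes tested (0.581% called higher and 0.444% lower). Between Irp2-/- and WT, 0 of 10 were called against 1.21% of 16154 (0.371% higher and 0.842% lower). Between Irp1-/- and Irp2-/-, 1 of 10 was called against 4.69% of 16281 (2.92% higher and 1.76% lower). At an unadjusted p below 0.05 the numbers were 2 of 10 in each comparison, beside 12.1%, 9.42% and 16.3% of all genes. DESeq2 called 0, 0 and 1 of them in the same order. The median log2 difference of the 10 was -0.0098, -0.034 and 0.051, and the median of its absolute size was 0.037, 0.063 and 0.086, beside 0.072, 0.071 and 0.088 for all genes tested. The 95% interval of the log2 difference lay within 0.25 of zero for 7, 6 and 6 of the 10 genes. The 3 comparisons share samples, so their values are not independent of each other.

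**Figure D2:**
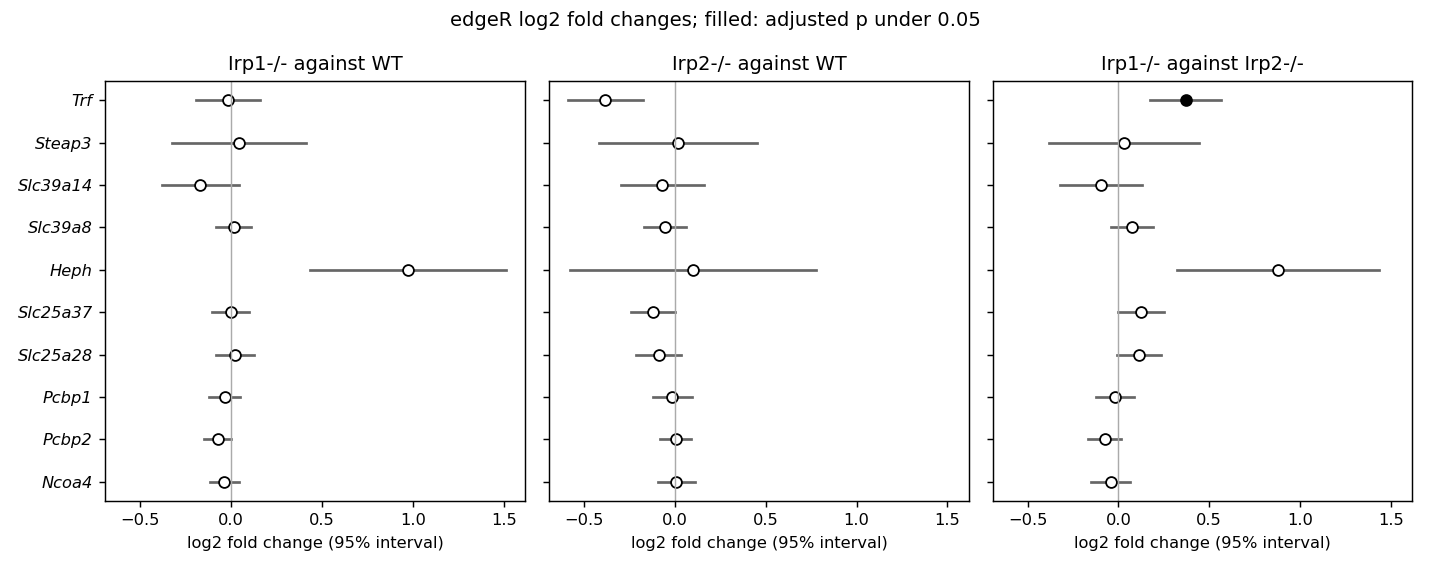
log2 fold change of each gene (x axis) with its 95% interval as a line, in Irp1-/- against WT, Irp2-/- against WT and Irp1-/- against Irp2-/-. The filled point, Trf between the knockouts at 0.37, is the one with an adjusted p below 0.05, and the widest intervals are those of the low genes Heph and Steap3.

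Transferrin, the product of Trf, binds ferric iron in plasma, and in the seminiferous tubule Sertoli cells make it and deliver iron to germ cells beyond the blood-testis barrier. Trf lies on chromosome 9 (GRCm38, 103204001 to 103230444, minus strand, 17 exons in its main transcript), 48.3 Mb from Ireb2. In WT testis Trf measured 14.6, 16.7, 16.3 and 19.9 CPM. In Irp1-/- testis it measured 19.2, 15.1, 16.3 and 16.9 CPM. In Irp2-/- testis it measured 14.3, 11.5 and 13.5 CPM. All 3 Irp2-/- samples were below every sample of both other genotypes, by a narrow margin from the lowest WT sample, while WT and Irp1-/- samples overlapped throughout.

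Trf was higher in Irp1-/- than in Irp2-/- testis by 0.37 on the log2 scale (SE 0.093, 95% interval 0.18 to 0.56, 1.29-fold, adjusted p = 0.0227 in edgeR). That call was lost without Irp1-/- replicate 1 (adjusted p = 0.112) or without Irp2-/- replicate 2 (adjusted p = 0.162). Against WT, Irp2-/- testis held 0.767 times as much Trf mRNA, a log2 difference of -0.38 (SE 0.099, 95% interval -0.59 to -0.18), which did not pass the threshold (adjusted p = 0.0601, edgeR, n = 3 and 4). This value sits at the edge of the test. Over the alternatives that dropped no sample, the adjusted p ran from 0.0287 without a filter to 0.299 with the replicate block (both edgeR). The difference passed in 2 of 7 fits that left out 1 sample. Irp1-/- and WT testis averaged the same level, 16.9 ± 1.73 and 16.9 ± 2.22 CPM (SD, n = 4 each), with a log2 difference of -0.02 (95% interval -0.19 to 0.16, adjusted p = 0.967, edgeR).

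In bulk testis a lower share of one cell type and less mRNA in each of its cells cannot be told apart, so markers of Sertoli cells were read beside Trf. The 10 Sertoli markers summed to 1123 to 1243 CPM in WT, 1129 to 1314 in Irp2-/- and 1260 to 1435 in Irp1-/-. Such a sum gives the most abundant markers the most weight, so it is not an even reading of all 10. In Irp2-/- against WT 6 of 10 were on the positive side, none was called, and their median log2 difference was 0.029. They ranged from -0.56 for Fshr, the follicle-stimulating hormone receptor (adjusted p = 0.543, edgeR), to 0.14. Within each genotype, however, the sample with the least Trf also had the lowest Sertoli sum and the sample with the most Trf had the highest. A ratio chosen after the values were seen was Trf per 1000 CPM of summed Sertoli markers. It was 13.02 to 16.03 in WT, 11.99 to 13.39 in Irp1-/- and 10.23 to 11.04 in Irp2-/-. The Irp2-/- ratios lay below every sample of the other genotypes, but so did Trf itself, so this order is not a separate result. The ratio was not tested. Between Irp1-/- and Irp2-/- 7 of 10 Sertoli markers were on the positive side with a median of 0.091, and 2 were called higher. These were Fshr at 0.83 (adjusted p = 0.0365, edgeR) and the homeobox gene Rhox5 at 0.36 (adjusted p = 0.0394, edgeR). Other cell types moved in that comparison too. All 8 Leydig markers were on the positive side with a median of 0.24, and 2 were called higher, the steroid dehydrogenase gene Hsd3b1 at 0.68 (adjusted p = 0.017, edgeR) and the hormone gene Insl3 at 0.27 (adjusted p = 0.0425, edgeR). Of the 7 spermatogonial markers 1 was on the positive side, and Sall4, a transcription factor of undifferentiated spermatogonia, was called lower at -0.58 (adjusted p = 0.0316, edgeR). Their part in the Trf difference was not tested. Of the windows of 50 bases in the Trf transcript, 79.8% are also annotated in Gm20425, a transcript on the same strand that has no row in the count table, so reads of the pair could not be separated.

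Hephaestin, encoded by Heph, oxidises ferrous iron as it leaves a cell so that transferrin can bind it, a role best known in the intestine. It was the lowest of the 10, on the X chromosome (GRCm38, 96455359 to 96574485, plus strand). In WT it measured 0.493, 0.672, 0.693 and 0.888 CPM, from 9 to 16 counts per sample. In Irp1-/- it measured 1.48, 1.51, 1.36 and 1.07 CPM, from 17 to 34 counts. In Irp2-/- it measured 0.626, 0.712 and 0.918 CPM, from 14 to 17 counts. Each Irp1-/- sample was above each sample of the other genotypes, and WT and Irp2-/- overlapped.

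The Heph mean was 1.35 ± 0.202 CPM in Irp1-/- and 0.687 ± 0.162 in WT (SD, n = 4 each), a log2 difference of 0.97 (SE 0.263, 95% interval 0.43 to 1.51, 1.96-fold). It did not pass after adjustment (adjusted p = 0.0733, edgeR, unadjusted p = 0.000951), and DESeq2, with an unadjusted p of 0.00563, gave it no adjusted value because of its low counts. Leaving out 1 sample at a time moved the log2 difference between 0.85 and 1.12 and the adjusted p between 0.0554 and 0.231, with no call in 8 fits. Against Irp2-/- the log2 difference was 0.88 (SE 0.268, adjusted p = 0.0662, edgeR). That comparison passed the threshold when genes needed at least 10 counts in every sample (adjusted p = 0.0426). In Irp2-/- against WT the log2 difference was 0.10, with a 95% interval from -0.57 to 0.78 that leaves room for a sizeable change either way.

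Other features of the Irp1-/- libraries moved beside Heph. The 646 X-linked genes tested had a median log2 difference of 0.10 in Irp1-/- against WT. Of these, 2 reached the Heph value, Heph counted, and 17 were called, beside 1.02% of all genes. Between the knockouts the 659 X-linked genes tested had a median of 0.12. Of those, 11 reached the Heph value of that comparison and 103 were called, beside 4.69% of all genes. In Irp2-/- against WT the median was -0.037 and 33 of 646 were called, beside 1.21% of all genes. The 8 Leydig cell markers summed to 1020 to 1197 CPM in Irp1-/-, 739 to 1088 in WT and 774 to 1055 in Irp2-/-. Against WT, 7 of these 8 were on the positive side in Irp1-/- with a median of 0.39, and 1 was called, Hsd17b3, the enzyme that makes testosterone from androstenedione, at 0.37 (adjusted p = 0.0232, edgeR). In the same comparison all 10 Sertoli markers were on the positive side, with a median of 0.092 and 1 call, Clu at 0.16 (adjusted p = 0.0473, edgeR). The 6 blood markers summed to 37.7 to 56.8 CPM in Irp1-/-, 30.5 to 36.5 in WT and 25.3 to 38.7 in Irp2-/-. Up to 4 of those 6, which include the haemoglobin genes, were at 0 in a sample. Whether these features contribute to the Heph difference was not tested. Hsf3, a gene on the opposite strand that overlaps Heph exons, had 0 to 2 counts per sample.

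**Figure D3:**
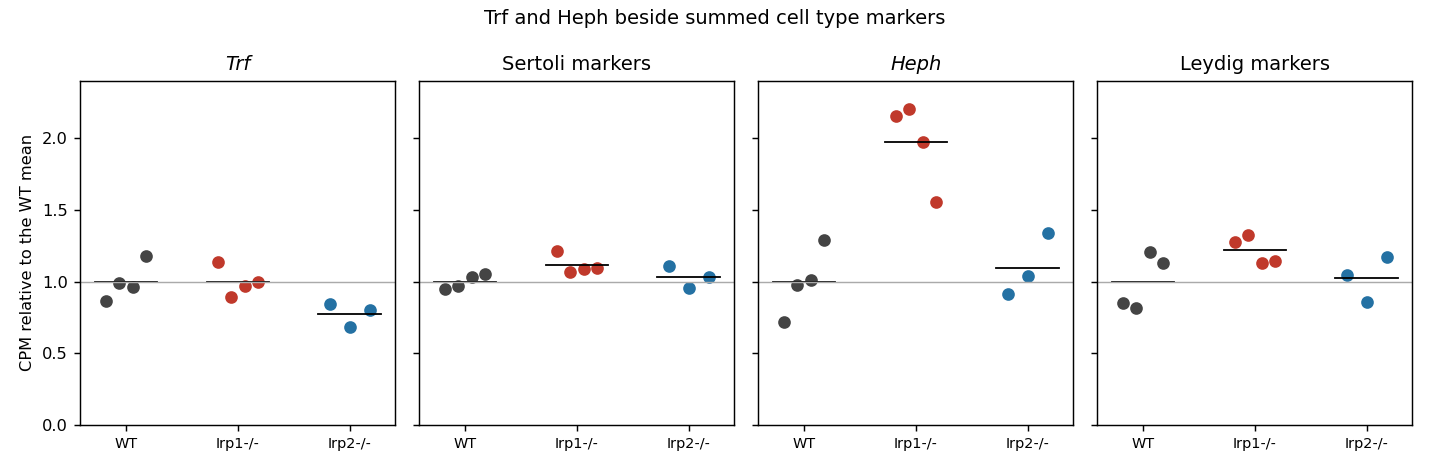
CPM of Trf, summed Sertoli markers, Heph and summed Leydig markers in each sample, divided by the WT mean of the same measure (y axis), with bars at group means. Trf averaged 0.776 of WT in the 3 Irp2-/- samples while the Sertoli sum averaged 1.03. Heph averaged 1.97 times WT in the 4 Irp1-/- samples while the Leydig sum averaged 1.22. Both sums give the most abundant markers the most weight.

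Of the remaining import genes, Steap3 encodes the endosomal reductase that turns ferric iron freed from transferrin into the ferrous form. Steap3 was low, 1.83 to 2.26 CPM in WT, 1.95 to 2.23 in Irp1-/- and 1.66 to 2.54 in Irp2-/-, from 31 to 50 counts per sample. The genotypes overlapped, and the 95% intervals of the log2 difference, -0.33 to 0.41 for Irp1-/- and -0.42 to 0.45 for Irp2-/- against WT, correspond to 0.797 to 1.33 times and 0.749 to 1.37 times the WT level, so smaller changes were not detectable at this depth.

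Slc39a14 and Slc39a8 encode ZIP14 and ZIP8, membrane importers that take up zinc, manganese and iron that is not bound to transferrin. Slc39a14 measured 6.74, 7.89, 7.74 and 7.33 CPM in WT and 6.28, 6.46, 7.13 and 6.73 CPM in Irp1-/-. In Irp2-/- it measured 7.07, 7.27 and 7.13 CPM. Of the 4 Irp1-/- samples, 3 lay below every WT sample, but the log2 difference of -0.17 (SE 0.103, 95% interval -0.38 to 0.04) did not pass (adjusted p = 0.548, edgeR).

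Slc39a8, in contrast, was nearly constant. It measured 44.0, 43.8, 43.8 and 43.9 CPM in WT, 44.3, 44.1, 45.3 and 45.2 in Irp1-/-, and 40.6, 44.2 and 43.7 in Irp2-/-. The WT spread (coefficient of variation 0.271%) was smaller than the 3.61% that counting error alone gives, so the absence of overlap between WT and Irp1-/- rests on a difference of 0.01 on the log2 scale (adjusted p = 0.941, edgeR). Per kilobase, Slc39a8 exceeded Slc39a14 by 8.28 ± 0.616 times in WT, 9.40 ± 0.408 times in Irp1-/- (SD, n = 4 each) and 8.35 ± 0.293 times in Irp2-/- (n = 3), and the ratio overlapped between WT and each knockout but not between Irp1-/- (8.87 to 9.84) and Irp2-/- (8.01 to 8.56). No test of the ratio was run.

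Counted over the 10 genes, groups did not overlap for 3 in Irp1-/- against WT (Slc39a8 and Heph higher, Pcbp2 lower), beside 6.18% of all genes. They did not overlap for 2 in Irp2-/- against WT (Trf lower, Pcbp2 higher), beside 9.76%, and for 3 between the knockouts (Trf and Heph higher in Irp1-/-, Pcbp2 lower), beside 15.1%. These counts use CPM without further scaling, and they were not tested.

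**Figure D4:**
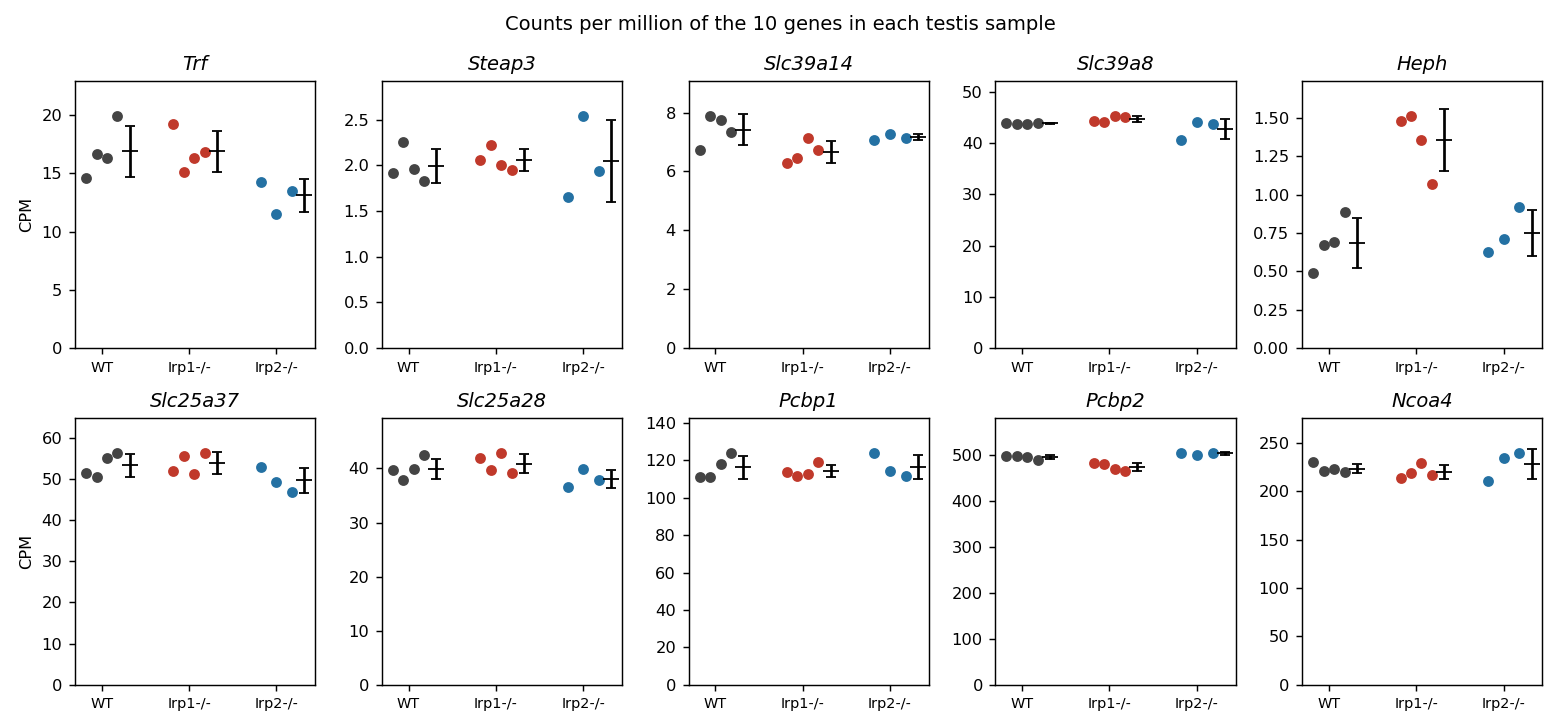
CPM of each of the 10 genes in every sample (y axes start at 0), with dots for samples and the mean and SD drawn to the right of each group. The Irp2-/- samples are lowest for Trf, at 11.5 to 14.3, the Irp1-/- samples are highest for Heph, at 1.07 to 1.51, and most other genes lie level across genotypes.

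Mitoferrin 1 and mitoferrin 2, the products of Slc25a37 and Slc25a28, carry iron across the inner mitochondrial membrane for haem and iron-sulphur cluster synthesis. Slc25a37 measured 51.5, 50.6, 55.1 and 56.4 CPM in WT, 51.9, 55.7, 51.1 and 56.4 in Irp1-/-, and 52.8, 49.3 and 46.7 in Irp2-/-. Slc25a28 measured 39.7, 37.8, 39.9 and 42.4 CPM in WT, 41.9, 39.6, 42.9 and 39.2 in Irp1-/-, and 36.6, 39.9 and 37.8 in Irp2-/-. Both overlapped between all genotypes. For Slc25a37 the log2 difference was -0.12 in Irp2-/- against WT (SE 0.058, 95% interval -0.24 to -0.0018) and 0.12 between Irp1-/- and Irp2-/- (SE 0.061), and neither passed (adjusted p = 0.516 and 0.319, edgeR). For Slc25a28 the same comparisons gave -0.09 and 0.11 (adjusted p = 0.733 and 0.351, edgeR). Neither differed detectably between Irp1-/- and WT, with intervals of -0.11 to 0.10 and -0.08 to 0.13. Slc25a37 was present at 0.492 ± 0.0125 of the Slc25a28 level per kilobase in WT, 0.485 ± 0.0449 in Irp1-/- (SD, n = 4 each) and 0.480 ± 0.0440 in Irp2-/- (n = 3), so the balance between the carriers was alike within the spread. Mitoferrin 1 is best known from developing red cells, and mitoferrin 2 is widely expressed. Of the windows of 50 bases in the Slc25a37 transcript, 8.07% are shared with Gm16867, which has no row in the table.

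Pcbp1 and Pcbp2 encode poly(rC)-binding proteins that bind RNA and also hand ferrous iron to ferritin and to enzymes. Pcbp2 measured 499, 498, 497 and 489 CPM in WT, 482, 481, 470 and 466 in Irp1-/-, and 505, 501 and 506 in Irp2-/-. The Irp1-/- samples lay below all others, by little. The log2 difference from WT was -0.08 (SE 0.036, 95% interval -0.15 to -0.0022), or 0.949-fold, and it did not pass (unadjusted p = 0.0438, adjusted p = 0.392, edgeR). Between the knockouts it was also -0.08 (adjusted p = 0.418, edgeR). In Irp2-/- against WT the fitted difference was 0.0039 with an interval of -0.08 to 0.09, although CPM did not overlap, and it changed sign with other normalization.

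Pcbp1, a gene of 1 exon, measured 111 to 124 CPM in WT, 112 to 119 in Irp1-/- and 112 to 124 in Irp2-/-, with overlap throughout. Its log2 difference from WT was -0.04 (95% interval -0.12 to 0.05) in Irp1-/- and -0.01 (-0.12 to 0.09) in Irp2-/-. Pcbp2 exceeded Pcbp1 per kilobase by 2.43 times in WT, 2.36 in Irp1-/- and 2.46 in Irp2-/-. Both overlap exons of genes on the other strand, 1600020E01Rik for Pcbp1 (88 to 137 counts per sample) and Map3k12 for Pcbp2 (199 to 307 counts). The libraries were stranded, but whether counting used the strand is not given in the sources used here.

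Ncoa4 encodes the receptor that brings ferritin to the autophagosome, where its iron is released. It measured 230, 221, 223 and 219 CPM in WT, 213, 219, 229 and 217 in Irp1-/-, and 210, 234 and 240 in Irp2-/-. Groups overlapped in every comparison. Its log2 difference from WT was -0.04 in Irp1-/- (95% interval -0.12 to 0.04, adjusted p = 0.765, edgeR) and 0.01 in Irp2-/- (95% interval -0.09 to 0.11, adjusted p = 0.984, edgeR). Of the windows of 50 bases in the Ncoa4 transcript, 43.1% also occur in Gm6768, a gene that has no row in the table.

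The cargo of Ncoa4 is ferritin, whose heavy chain Fth1 and light chain Ftl1 carry IREs. Fth1 averaged 146 ± 4.87 CPM in WT, 158 ± 6.08 in Irp1-/- (SD, n = 4 each) and 132 ± 10.2 in Irp2-/- (n = 3). It was higher in Irp1-/- than in Irp2-/- by 0.26 (SE 0.054, adjusted p = 0.00499, edgeR), a call lost without Irp2-/- replicate 2 (adjusted p = 0.0676), and it passed against WT in neither knockout (adjusted p = 0.289 and 0.168, edgeR). It was -0.16 in Irp2-/- against WT, and without Irp2-/- replicate 1 it was called at -0.22 (adjusted p = 0.00917, edgeR). Ftl1 averaged 61.6 ± 9.33 CPM in WT, 71.8 ± 1.90 in Irp1-/- and 76.8 ± 12.8 in Irp2-/-. The log2 differences from WT, 0.21 and 0.30, did not pass (adjusted p = 0.29 and 0.653, edgeR). WT samples were split for Ftl1, with 55.0 and 52.2 CPM in replicates 1 and 2 and 70.8 and 68.3 in replicates 3 and 4. Ncoa4 stood at 0.343 ± 0.0308 of the summed ferritin chains per kilobase in WT, 0.301 ± 0.0180 in Irp1-/- (n = 4 each) and 0.336 ± 0.0432 in Irp2-/- (n = 3), and these ranges overlapped. Tfrc, the receptor that takes up transferrin, averaged 17.2 CPM in WT and in Irp1-/- and 18.3 in Irp2-/-, with log2 differences from WT of -0.02 and 0.07 (adjusted p = 0.964 and 0.902, edgeR).

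Beyond these, 39 further iron handling genes were listed by role, of which 34 were tested. In Irp1-/- against WT 0 of 34 were called, with a median log2 difference of 0.0015. In Irp2-/- against WT 0 were called, with a median of -0.0032. Between the knockouts 1 was called, Fth1, with a median of 0.011. Over all genes tested, 1.02%, 1.21% and 4.69% were called in the same order. At an unadjusted p below 0.05 there were 3 of 34 in each comparison, beside 12.1%, 9.42% and 16.3% of all genes. Abcb8, a mitochondrial transporter, had the smallest p among them in Irp1-/- against WT, at -0.19 (unadjusted p = 0.00419, adjusted p = 0.15, edgeR). In Irp2-/- against WT, Slc11a2, the divalent metal transporter DMT1, stood at 0.16 (adjusted p = 0.415) and the reductase gene Steap1 at -0.65 (adjusted p = 0.465), the latter from few counts. Between the knockouts, Herc2, whose ubiquitin ligase product targets NCOA4 protein for degradation, stood at -0.13 (adjusted p = 0.2, edgeR). Hfe, the hereditary haemochromatosis gene, stood at 0.27 (adjusted p = 0.265, edgeR), and at 0.16 without Irp1-/- replicate 7.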

How the data were processed

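The authors sequenced poly(A) RNA of whole testis (Illumina Stranded mRNA, 50 bp paired-end reads) and deposited raw read counts per gene, without normalization, from the nf-core RNA-seq pipeline 3.7 with mm10. The tool that counted reads and its strand setting are not given in the sources used here. The labels number the samples, but which samples, if any, share a litter is not stated, so p-values measure the spread between these samples. The 15 pairs of replicates differed beyond sampling noise (chi-square per degree of freedom 1.97 to 6.75).

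The tests used edgeR 4.0.16 under R 4.3.3, with filterByExpr, TMM factors and a robust quasi-likelihood model of the 2 genotypes compared. Values of single genes are CPM, and intervals are 95%. They cover counting error and the spread between samples only. Lengths and positions come from GENCODE M21 (GRCm38), older symbols from RefSeq. The alternatives were RLE normalization, other filters, DESeq2 1.42.0, a fit of all 11 samples, the replicate number as a block, and leaving out each sample. The self-test ran on simulated counts. The 10 genes and all lists were chosen with earlier results of these data known. The text names all 10, both targeted genes, Tfrc, Fth1 and Ftl1, other listed iron genes that were called, and the 3 with the smallest p in each comparison. Marker genes that were called were named after their values were seen.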

Additional observations from a re-analysis of the deposited data

Results flagged for a closer look

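In 3 of 40 groups of 4 samples, 1 sample stood apart from the other 3, where chance gives about 2. Slc11a2 measured 25.9 CPM in Irp1-/- replicate 1 and 21.5 to 21.9 in the others of its group. Hfe measured 11.2 CPM in Irp1-/- replicate 7 and 8.08 to 8.44 in the others. Ireb2 measured 132 CPM in WT replicate 3 and 140 to 142 in the others. None of the 10 iron transport and ferritin handling genes had such a sample. Groups of 3, and so all Irp2-/- values, were not examined.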

How the results depend on the processing

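Leaving out 1 sample at a time gave 55 to 216 called genes in Irp1-/- against WT (55 without Irp1-/- replicate 1), 118 to 223 in Irp2-/- against WT (118 without Irp2-/- replicate 2) and 414 to 763 between the knockouts (414 without Irp2-/- replicate 2 and 471 without Irp1-/- replicate 1), and 0 to 0, 0 to 1 and 0 to 1 of the 10 genes. In Irp1-/- against WT the count was also below the 164 by more than 1.5 times without Irp1-/- replicate 6 (102), WT replicate 2 (84) and WT replicate 4 (106). Of the 10 genes, 1 (Trf) was called in Irp2-/- against WT with RLE normalization, 1 without a filter and 1 when all 11 samples were fitted together. Between the knockouts 2 (Trf and Heph) were called with at least 10 counts in every sample and 2 with the replicate block. The block gave 439 called genes in Irp1-/- against WT, 132 in Irp2-/- against WT and 852 between the knockouts. In that fit only replicate numbers present in both groups inform the genotype difference. They are 1 and 2 in both comparisons with Irp1-/-, and 1, 2 and 3 in Irp2-/- against WT. All block values given here rest on those samples alone. Same-numbered samples correlated at 0.0973 or less. The same-numbered sample was still the best match for number 2 in Irp1-/- against WT and for 2 and 3 in Irp2-/- against WT. Between the knockouts it was the best match for 1 and 2, while number 1 matched another number in both comparisons with WT. Because the labels do not state that numbers pair samples, the block was kept as an alternative. With the block, Ftl1 was called against WT in Irp1-/- (0.40, adjusted p = 5.04e-08, edgeR) and Irp2-/- (0.35, adjusted p = 0.00895, edgeR). The Irp1-/- value rests on WT replicates 1 and 2, at 55.0 and 52.2 CPM. WT replicates 3 and 4, at 70.8 and 68.3 CPM, did not inform it and lay near the Irp1-/- samples (69.1 to 73.6 CPM). Aco1 in Irp1-/- lost its call with the block (adjusted p = 0.314).

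Reversed signs concerned values near zero. With the block these were, against WT in Irp1-/-, Trf 0.098, Slc39a8 -0.019, Slc25a37 0.047 and Tfrc 0.017, in Irp2-/-, Steap3 -0.036, Pcbp1 0.014, Pcbp2 -0.0076 and Ncoa4 -0.0058, and between the knockouts Ftl1 0.054. Slc25a37 in Irp1-/- was 0.00046 with at least 10 counts and 0.00031 in the fit of all samples. In Irp2-/-, Pcbp2 was -0.0014 with RLE and -0.0020 with DESeq2, and Aco1 -0.0041 with RLE, -0.0047 with DESeq2, -0.0011 with at least 10 counts and -0.0020 in the fit of all samples. The cause was not tested.

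Without 1 sample at a time, signs reversed within these ranges. In Irp1-/- against WT they were -0.082 to 0.069 for Trf, -0.0060 to 0.11 for Steap3, -0.027 to 0.023 for Slc25a37, -0.00062 to 0.046 for Slc25a28, -0.078 to 0.027 for Tfrc, -0.012 to 0.078 for Slc11a2 and -0.055 to 0.018 for Ireb2. In Irp2-/- against WT they were -0.18 to 0.16 for Steap3, -0.052 to 0.25 for Heph, -0.061 to 0.022 for Pcbp1, -0.0075 to 0.012 for Pcbp2, -0.022 to 0.064 for Ncoa4 and -0.10 to 0.10 for Aco1. Between the knockouts they were -0.11 to 0.22 for Steap3, -0.054 to 0.028 for Pcbp1 and -0.18 to 0.042 for Ftl1. Depth limits Heph and Steap3 most, at 9 to 34 and 31 to 50 counts per sample.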
